A study of Mus musculus with 8 samples.

Results

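The miR-125 and miR-99/100 families were followed in the medium of mouse muscle cell co-cultures. The 6 miRNAs described are mmu-miR-125a-5p, mmu-miR-125b-5p and mmu-miR-351-5p of the miR-125 family, and mmu-miR-99a-5p, mmu-miR-99b-5p and mmu-miR-100-5p of the miR-99/100 family, out of 1881 mouse miRNAs on the array. They were selected by name, on family membership and on their signal and detection across the 3 groups in these same arrays. The differences between groups given for them are therefore descriptions and carry no test. Of the 6, 5 were detected on all 8 arrays and miR-351-5p on 3.

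The study compared what primary myocytes release into shared medium when they carry a mutant or a normal human SOD1 transgene. In G93A/G93A co-cultures (n = 3 arrays), both transwell chambers held cells of hSOD1(G93A) mice, strain B6SJL(Tg-SOD1*G93A)1Gur/J, a model of amyotrophic lateral sclerosis. In G93A/WT co-cultures (n = 3), the bottom chamber held hSOD1(G93A) cells and the insert hSOD1(WT) cells. In WT/WT co-cultures (n = 2), both chambers held cells of hSOD1(WT) mice, strain B6SJL(Tg-SOD1)2Gur/J, so all 3 groups overexpressed a human SOD1 and no transgene-free culture was analysed here. The cells came from hind-limb muscle of hemizygous newborns aged 1 to 3 days, labelled male, and medium was taken after 2 days in vitro with no treatment. Each sample is called a biological replicate in the series' design text, which names no litter or culture day. Cell-free medium was not analysed here, and serum miRNAs of identical sequence would be read by the same probes. In medium, fewer cells releasing a miRNA and less release per cell cannot be told apart.

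miRNAs guide Argonaute proteins to messenger RNAs, mainly through their seed (bases 2 to 8), and lower the output of those messages. miR-125 descends from lin-4, a timing regulator of the worm. In mouse muscle cells, miR-125b restrains myoblast differentiation and represses Igf2, and miR-351 favours proliferation of muscle progenitors. miR-99 and miR-100 repress components of the mTOR and insulin-like growth factor pathways, as shown mostly in human cells. Copies of both families lie beside let-7 genes in vertebrate genomes.

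The mature sequences are shown because the 6 miRNAs fall into only 2 seed groups, whose members differ from each other outside the seed. Whether those bases bear on their levels was not tested. They are from RefSeq (GRCm38.p6), 5′ to 3′, with the seed in capitals.
mmu-miR-125a-5p: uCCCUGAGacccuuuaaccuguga
mmu-miR-125b-5p: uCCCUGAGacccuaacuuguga
mmu-miR-351-5p: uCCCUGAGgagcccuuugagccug
mmu-miR-99a-5p: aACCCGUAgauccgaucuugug
mmu-miR-99b-5p: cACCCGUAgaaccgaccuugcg
mmu-miR-100-5p: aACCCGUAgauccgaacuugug
The miR-125 seed is CCCUGAG and the miR-99/100 seed is ACCCGUA. The 3 miR-125 members shared their first 8 bases, and miR-125a-5p and miR-125b-5p their first 13. Counted from 1 at the 5′ end, miR-100-5p differed from miR-99a-5p by 1 base, U16A, and miR-99b-5p from miR-99a-5p by 4, A1C, U11A, U16C and U21C.

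The loci pair a miR-99/100 member with a miR-125 member 3 times (all positions GRCm38.p6). On chromosome 9, Mir100, Mirlet7a-2 and Mir125b-1 lie within chr9:41531425-41582002 (50.6 kb), inside the bounds of the long non-coding RNA gene Mir100hg. On chromosome 16, Mir99a, Mirlet7c-1 and Mir125b-2 lie within chr16:77598936-77646343 (47.4 kb), with no gene spanning them in the annotation used. On chromosome 17, Mir99b, Mirlet7e and Mir125a lie within chr17:17830188-17830879, only 692 bases, inside the bounds of the protein-coding gene Spaca6. Mir351 lies apart, at chrX:53053255-53053353 in the bounds of the long non-coding RNA gene C430049B03Rik, in a cluster of 7 precursors with Mir322, Mir503, Mir542 and the Mir450 genes. The signal of miR-125b-5p sums 2 precursors, Mir125b-1 and Mir125b-2, which the array cannot tell apart. Whether a precursor is exonic or intronic was not analysed here.

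Between 450 and 563 mouse miRNAs were detected per array, and 423 on all 8. Deposited signals summed to between 115265 and 203040 units per array, highest on the G93A/WT arrays. Each array was scaled on its 75th percentile over those 423 miRNAs, with factors of 0.593 to 1.44, so every value below is a level relative to the other miRNAs in the same medium. Without scaling, every signal above the floor would move by 0.77 on the log2 scale in G93A/WT minus WT/WT, by 0.16 in G93A/G93A minus WT/WT and by -0.61 in G93A/G93A minus G93A/WT. Over the tested miRNAs, r was 0.970 to 0.990 between arrays of a group and 0.939 to 0.984 between groups. The names of the array files, the only source for the slide layout used here, place the arrays in 2 rows. Read so, row 1 held the G93A/WT arrays and WT/WT 1, and row 2 the G93A/G93A arrays and WT/WT 2. On this reading the groups with mutant cells never shared a row, and each shared 1 with a single WT/WT array. Muscle markers were bright in every group, with summed scaled signals of 4094 to 5063 units in G93A/G93A, 4341 to 5258 units in G93A/WT and 4522 to 5194 units in WT/WT, and 0 of 4 tested ones were called in G93A/G93A minus WT/WT, by limma's adjusted p.

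miR-125b-5p, the muscle differentiation regulator, had 495, 516 and 565 scaled units in G93A/G93A, 621, 698 and 678 units in G93A/WT, and 881 and 937 units in WT/WT. The 3 groups did not overlap, and the mixed co-culture lay between the pure ones. On the log2 scale it averaged 9.03 ± 0.10 in G93A/G93A, 9.38 ± 0.09 in G93A/WT (SD, n = 3 each) and 9.83 ± 0.06 in WT/WT (SD, n = 2). The level in G93A/G93A was 0.577 times that in WT/WT, a log2 difference of -0.79 ± 0.11 (limma's standard error, used for every difference here). The level in G93A/WT was 0.732 times that in WT/WT (log2 -0.45 ± 0.11), and that in G93A/G93A was 0.789 times that in G93A/WT (log2 -0.34 ± 0.10). Without scaling, the difference between G93A/WT and WT/WT turned to 0.32, while the one between G93A/G93A and WT/WT stayed below 0 at -0.63.

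miR-125a-5p, its close paralog, had 54.2, 61.1 and 64.7 units in G93A/G93A, 54.3, 57.7 and 58.7 units in G93A/WT, and 65.4 and 76.0 units in WT/WT. Both groups with mutant cells lay below WT/WT, by a narrow gap for G93A/G93A, and they overlapped each other. The log2 difference was -0.24 ± 0.12 in G93A/G93A minus WT/WT, -0.31 ± 0.12 in G93A/WT minus WT/WT and 0.07 ± 0.11 in G93A/G93A minus G93A/WT. Without scaling these became -0.07, 0.46 and -0.53, so 2 of the 3 changed sign.

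miR-351-5p, which shares the seed and the first 8 bases, was near the detection limit. It was undetected on all 3 G93A/G93A arrays, had deposited signals of 1.59, 3.10 and 1.94 units on the G93A/WT arrays, and was undetected on both WT/WT arrays. After scaling, 2 of the 3 detected values (1.48 and 1.47 units) lay under the floor of 1.52 units set for all miRNAs, and the other was 1.84 units. Its scanner error there had a median of 26.0% of the signal, against 9.41% to 10.8% for the other 5 members. It passed the filter for testing, detection on at least 2 arrays, only through the G93A/WT group, whose arrays were the brightest. No fold is given, because its mean in G93A/WT was under the mean lowest detected signal of the arrays of either other group.

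**Figure D1:**
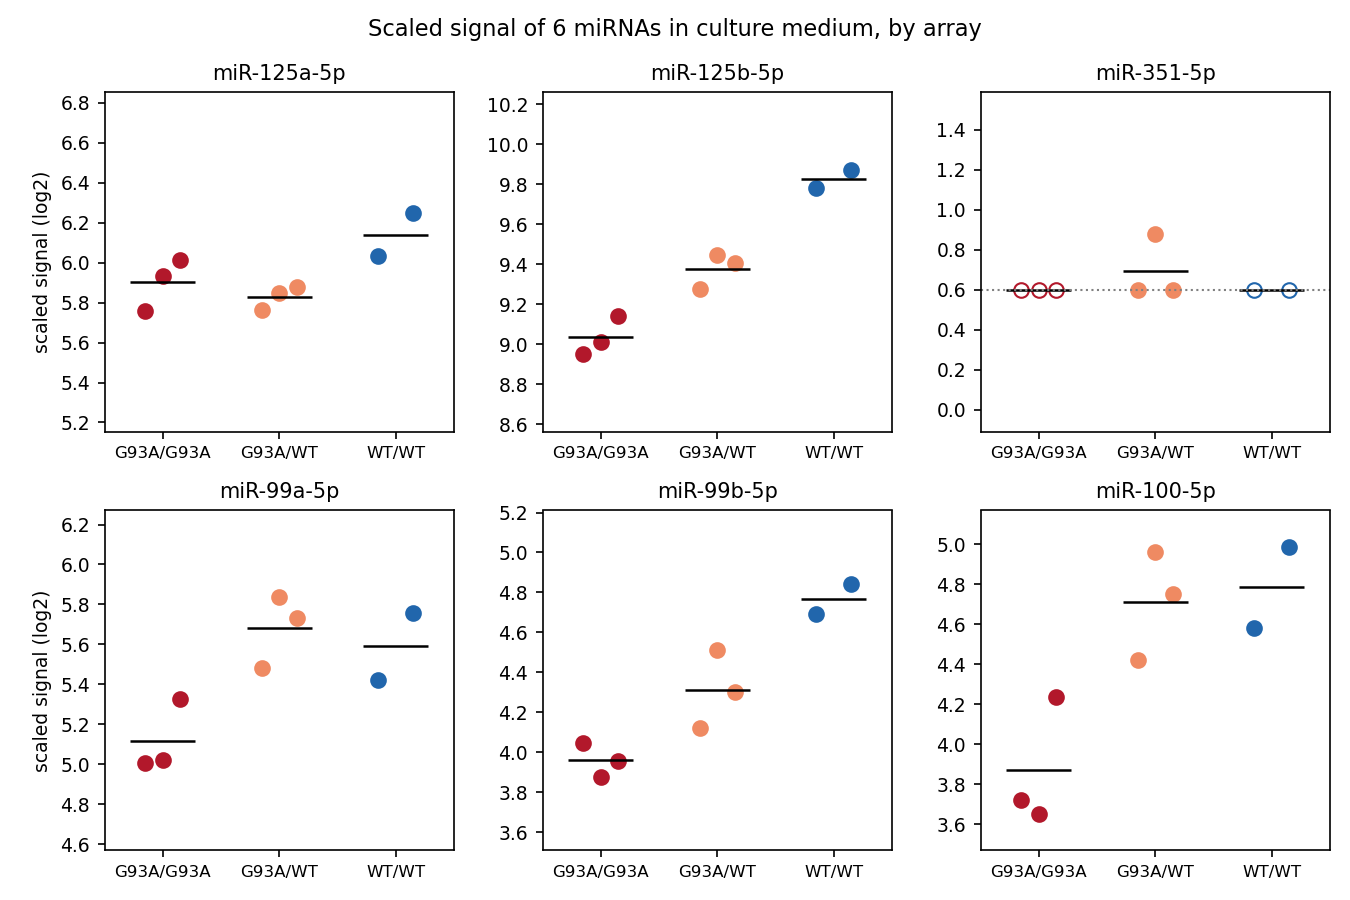
Scaled signal of each of the 6 miRNAs (log2, vertical axes of equal span) on the 3 G93A/G93A, 3 G93A/WT and 2 WT/WT arrays; points are arrays, bars are group means, open points are undetected and the dotted line is the floor at log2 0.60. miR-125b-5p and miR-99b-5p step up through the 3 groups without overlap, while miR-99a-5p and miR-100-5p are low in G93A/G93A only; without scaling, the G93A/WT points of the 5 miRNAs above the floor would lie 0.77 higher relative to WT/WT.

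miR-99b-5p, from the chromosome 17 cluster, had 16.5, 14.7 and 15.5 units in G93A/G93A, 17.4, 22.8 and 19.7 units in G93A/WT, and 25.8 and 28.7 units in WT/WT. The groups again did not overlap and kept the order seen for miR-125b-5p. How many of all tested miRNAs keep this order was not counted. In the authors' deposited table of processed values, G93A/G93A (15.6 to 18.6) and G93A/WT (15.8 to 20.0) overlapped, and both stayed below WT/WT (26.2 and 30.5). Its level in G93A/G93A was 0.572 times that in WT/WT (log2 -0.81 ± 0.14), and its level in G93A/WT was 0.729 times that in WT/WT (log2 -0.46 ± 0.14). G93A/G93A minus G93A/WT was -0.35 ± 0.13. Without scaling the difference between G93A/WT and WT/WT was 0.31.

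miR-99a-5p, from chromosome 16, had 32.1, 32.4 and 40.2 units in G93A/G93A, 44.6, 57.1 and 53.2 units in G93A/WT, and 42.9 and 54.1 units in WT/WT. Here G93A/WT and WT/WT overlapped, and all G93A/G93A arrays lay below both. The log2 difference was -0.47 ± 0.17 in G93A/G93A minus WT/WT, 0.09 ± 0.17 in G93A/WT minus WT/WT and -0.57 ± 0.16 in G93A/G93A minus G93A/WT.

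miR-100-5p, from chromosome 9 and 1 base away from miR-99a-5p, had 13.2, 12.6 and 18.9 units in G93A/G93A, 21.4, 31.2 and 27.0 units in G93A/WT, and 24.0 and 31.7 units in WT/WT. It followed the same pattern as miR-99a-5p, with G93A/WT and WT/WT overlapping and G93A/G93A below both. Its level in G93A/G93A was 0.530 times that in WT/WT (log2 -0.92 ± 0.24) and 0.557 times that in G93A/WT (log2 -0.84 ± 0.22). G93A/WT minus WT/WT was -0.07 ± 0.24, and 0.70 without scaling. For miR-99a-5p and miR-100-5p alike, G93A/G93A 3 stood above the other two arrays of its group.

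Against WT/WT, 5 of the 6 miRNAs were lower on every G93A/G93A array than on every WT/WT array, in a comparison where 22.7% of all 538 tested miRNAs were. In the authors' deposited table miR-125a-5p lost this separation, with a highest value of 65.3 in G93A/G93A and a lowest of 63.0 in WT/WT. By limma's adjusted p over all 538, miR-125b-5p and miR-99b-5p, 2 of 6, were among the 8.55% called. Since these contrasts served to choose the miRNAs, nothing is read from either count. The median log2 difference was -0.63 over the 6 (-0.79 over the 5 detected on all arrays), and -0.01 over all tested miRNAs. Over the 290 tested miRNAs numbered below 1000, a class that holds all 6, it was -0.11. Without WT/WT 1, miR-125b-5p stood at -0.84 and miR-99b-5p at -0.88, and without WT/WT 2 they stood at -0.75 and -0.73. Blocking by slide row, or fitting row 2 alone, gave the same differences as leaving out WT/WT 1. Both calls were lost in all these fits, which compare G93A/G93A with a single WT/WT array. Nothing about these miRNAs in particular is read from that loss. Leaving out G93A/G93A 2 left 1 of 6 called, miR-125b-5p, beside 22 of all 538. Leaving out G93A/G93A 3 added miR-100-5p, at -1.10, and 57 of all 538 were then called, against 46 in the main fit.

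In G93A/WT minus WT/WT, 3 of the 6 (miR-125a-5p, miR-125b-5p and miR-99b-5p) were lower on every G93A/WT array than on every WT/WT array, beside 26.0% of all tested miRNAs. None of the 6 was called by limma, beside 3.90% of all. At an unadjusted p under 0.05, limma had 132 of the 538 in this comparison. The median over the 6 was -0.19, against 0.04 over all tested and 0.08 over the tested miRNAs numbered below 1000. Leaving out G93A/G93A 3, which enters through the shared spread, brought miR-125b-5p past the threshold at an unchanged -0.45. In that refit 61 of all 538 were called, against 21 in the main fit. This comparison and the one before share the 2 WT/WT arrays, so their values are set side by side only.

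In G93A/G93A minus G93A/WT, 4 of the 6 (miR-125b-5p, miR-99a-5p, miR-99b-5p and miR-100-5p) lay lower on every G93A/G93A array, beside 19.1% of all tested miRNAs. In the authors' deposited table miR-99b-5p lost this separation. None of the 6 was called, beside 10.6% of all, and limma had 173 of the 538 at an unadjusted p under 0.05. The median was -0.35 over the 6, -0.10 over all tested and -0.20 over the tested miRNAs numbered below 1000, the class of all 6. Leaving out G93A/G93A 3 left 3 of 6 called, miR-125b-5p at -0.40, miR-99a-5p at -0.67 and miR-100-5p at -1.03. In that refit 122 of all 538 were called, against 57 in the main fit. Leaving out G93A/WT 1 left the same 3 called, at -0.39, -0.67 and -0.99, beside 81 of all 538. These 2 groups never shared a slide row, and with the row as a block 0 of all 538 miRNAs were called. That fit links the rows only through a single WT/WT array in each, so its precision is lower. miR-125b-5p stood at -0.43 ± 0.21 there. The part of the slide row in these differences was not tested.

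**Figure D2:**
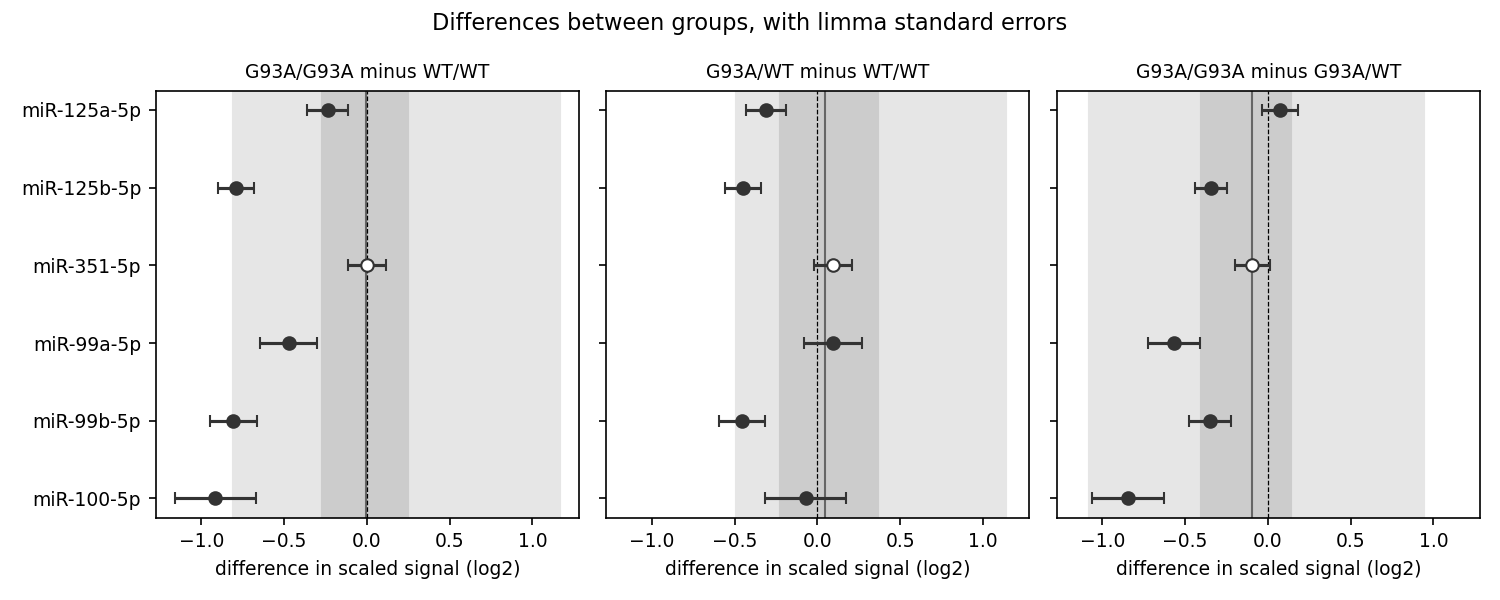
Log2 difference in scaled signal of the 6 miRNAs in the 3 comparisons, with limma standard errors; grey bands run between the percentiles 25 and 75 (dark) and 5 and 95 (light) of all 538 tested miRNAs, the grey line is their median, and the open point is miR-351-5p, undetected in 2 groups. In G93A/G93A minus WT/WT, miR-100-5p at -0.92 lies outside the light band and miR-125b-5p and miR-99b-5p lie at its lower edge, -0.81; without scaling, the middle panel's 5 filled points would move up by 0.77 together with all signals above the floor, and miR-351-5p would stand at 0.51.

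Ratios of 2 miRNAs on the same array do not depend on scaling. Each is given as the log2 ratio minus its WT/WT mean, and shows only whether 2 miRNAs changed unequally. How often ratios of other miRNAs separate the groups was not counted. miR-125b-5p over miR-125a-5p, paralogs with the same seed, stood at -0.49, -0.61 and -0.56 on the G93A/G93A arrays, -0.17, -0.09 and -0.16 on the G93A/WT arrays, and 0.06 and -0.06 on the WT/WT arrays. The 3 groups did not overlap, so relative to miR-125a-5p, miR-125b-5p was lowest in G93A/G93A medium, intermediate in G93A/WT and highest in WT/WT.

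Unequal change was also seen within the 692 bases of the chromosome 17 cluster. miR-99b-5p over miR-125a-5p stood at -0.34, -0.68 and -0.69 on the G93A/G93A arrays, -0.27, 0.03 and -0.20 on the G93A/WT arrays, and 0.03 and -0.03 on the WT/WT arrays. All G93A/G93A arrays lay below both other groups, which overlapped. miR-99b-5p over let-7e-5p, the let-7 member between them, averaged -0.47 in G93A/G93A minus WT/WT and -0.39 in G93A/WT minus WT/WT, with both groups below both WT/WT arrays.

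In the chromosome 16 and 9 clusters the ratios to miR-125b-5p, which both clusters supply, were highest in the mixed medium. miR-99a-5p over miR-125b-5p was 0.29, 0.25 and 0.43 on the G93A/G93A arrays, 0.44, 0.63 and 0.57 on the G93A/WT arrays, and -0.12 and 0.12 on the WT/WT arrays, so both groups with mutant cells were above WT/WT and G93A/WT was highest. miR-100-5p over miR-125b-5p was above WT/WT on all G93A/WT arrays, by a mean of 0.38, and overlapped WT/WT on the G93A/G93A arrays, with a mean difference of -0.12. miR-100-5p over miR-99a-5p, 1 base apart, was lowest in G93A/G93A, intermediate in G93A/WT and highest in WT/WT without overlap, at -0.44 in G93A/G93A minus WT/WT and -0.16 in G93A/WT minus WT/WT. Cross-hybridisation between these near-identical sequences was not tested.

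**Figure D3:**
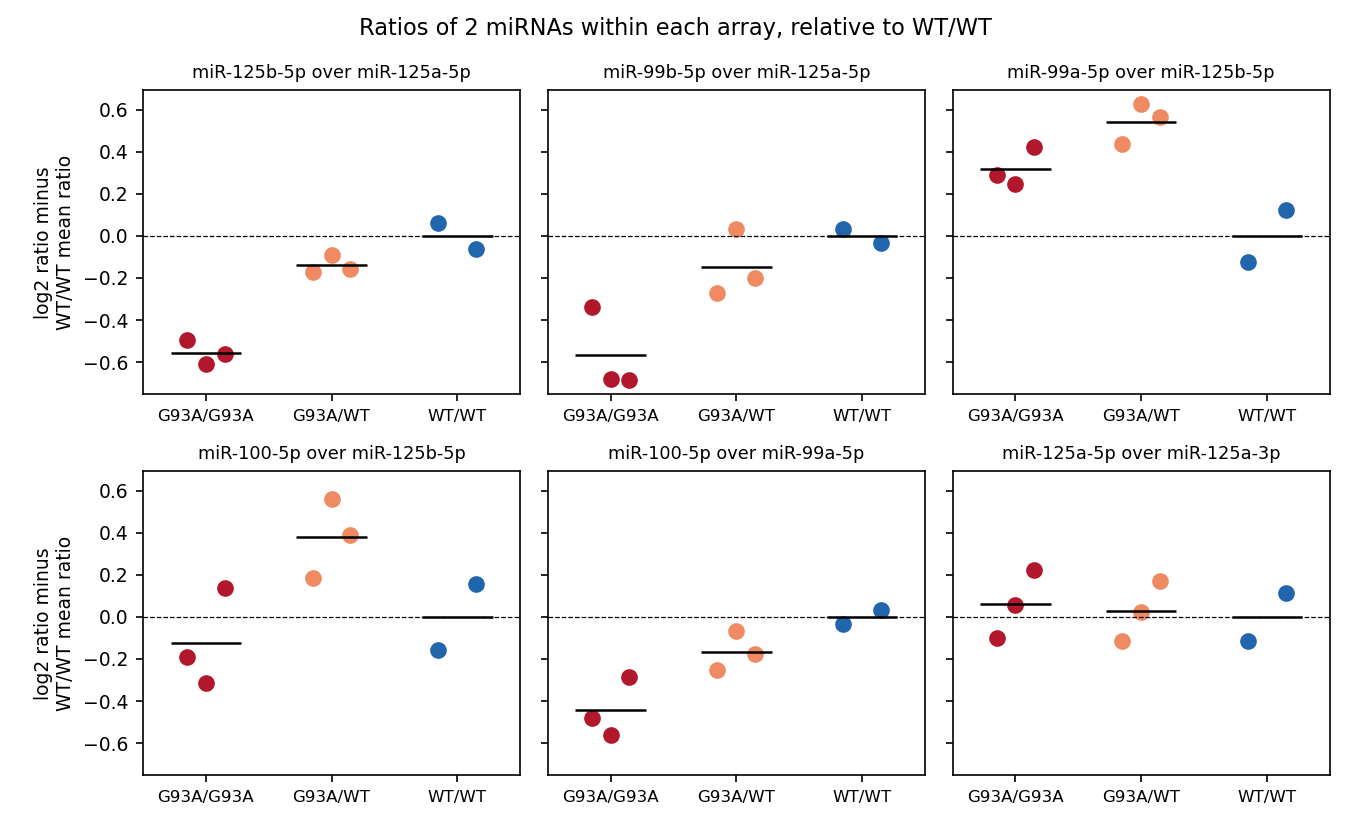
Log2 ratio of 2 miRNAs within each array, minus the mean ratio of the 2 WT/WT arrays, for 6 pairs; points are arrays and bars are group means. miR-125b-5p over miR-125a-5p separates all 3 groups, with G93A/G93A between -0.61 and -0.49, while the 2 arms of the miR-125a precursor overlap in all groups.

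Across the 8 arrays, and as a description only, since the arrays share 3 groups and 1 slide, miR-99a-5p and miR-100-5p had the highest correlation of any pair of the 5 well detected members (Pearson r = 0.979). miR-125b-5p and miR-99b-5p followed at 0.957, although they come from different chromosomes and carry different seeds. The lowest pair was miR-125a-5p with miR-99a-5p at 0.295. The first of these pairs lies within a family, and the others lie across families. Of 418 other miRNAs detected on all 8 arrays, those most like miR-125b-5p were miR-652-3p (r = 0.950), miR-337-5p (0.947) and miR-324-5p (0.939). Those most like miR-99a-5p were miR-210-3p (0.977), miR-322-5p (0.942) and miR-24-3p (0.905). miR-125b-5p and miR-99a-5p were taken as leads because their mean signals were the highest of their families.

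The opposite arms of the same precursors were not used to choose the miRNAs. Of 7, only miR-125a-3p was detected on all 8 arrays, and miR-125b-1-3p, miR-125b-2-3p, miR-99a-3p and miR-100-3p were detected on none, so the precursors behind miR-125b-5p could not be separated by their other arm. miR-125a-3p had log2 levels of 5.75, 5.76 and 5.68 in G93A/G93A, 5.76, 5.71 and 5.59 in G93A/WT, and 6.03 and 6.02 in WT/WT. It was lower on every array of both groups with mutant cells than on either WT/WT array, like its partner arm, at -0.30 ± 0.10 in G93A/G93A (limma adjusted p = 0.108) and -0.34 ± 0.10 in G93A/WT (adjusted p = 0.0957), neither of which passed. The ratio of the 2 arms overlapped between all groups, with mean differences from WT/WT of 0.06 and 0.03. miR-351-3p was detected on all arrays but G93A/G93A 1, which was set at the floor, while miR-351-5p was detected on 3. Its log2 levels on the other G93A/G93A arrays were 2.53 and 2.14, against 2.65 and 2.58 in WT/WT. With the floored array, its log2 difference was -0.86 ± 0.55 in G93A/G93A minus WT/WT and 0.10 ± 0.55 in G93A/WT minus WT/WT (limma adjusted p = 0.359 and 0.920). miR-99b-3p was detected on 3 arrays, near the floor.

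The let-7 partners, repressors of growth and cell cycle genes, showed no call in any comparison (0 of 3 tested). Of all 538 tested miRNAs, 8.55% were called in G93A/G93A minus WT/WT, 3.90% in G93A/WT minus WT/WT and 10.6% in G93A/G93A minus G93A/WT. In the same order, 1 (let-7e-5p), 1 (let-7c-5p) and 2 of the 3 were lower on every array of the first group. Of all tested miRNAs, 22.7%, 26.0% and 19.1% were. In G93A/G93A minus WT/WT, let-7a-5p stood at -0.20 ± 0.16, let-7c-5p at -0.26 ± 0.16 and let-7e-5p at -0.34 ± 0.15 (limma adjusted p = 0.468, 0.354 and 0.208). let-7a-5p and let-7c-5p also arise from precursors outside these clusters. The 3 opposite arms of let-7 listed were detected on no array.

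The neighbours of miR-351 on the X chromosome include miR-322 and miR-503, which favour cell cycle exit of mouse myoblasts. Of 7 tested neighbours, none was called in G93A/G93A minus WT/WT, 1 was higher in G93A/WT minus WT/WT and the same 1 was lower in G93A/G93A minus G93A/WT. It was miR-450a-2-3p, which was detected on the same 3 arrays as miR-351-5p, those of G93A/WT. Like miR-351-5p, it passed the filter only through that group, and the arrays of both other groups lay at the floor with no spread, so nothing is read from its calls. Its log2 mean was 1.44 in G93A/WT and at the floor, 0.60, in the other groups. No fold is given, since an array's lowest detected signal need not be the detection limit of this miRNA. With a floor of 4 units its difference was 0. miR-322-5p stood at -0.35 ± 0.14 in G93A/G93A minus WT/WT and -0.38 ± 0.12 in G93A/G93A minus G93A/WT (limma adjusted p = 0.162 and 0.0868).

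The miR-10 relatives carry the seed ACCCUGU, related to that of miR-99/100 and shown here for comparison with it (RefSeq, GRCm38.p6, seed in capitals). Their genes lie among the Hox genes.
mmu-miR-10a-5p: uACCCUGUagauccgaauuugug
mmu-miR-10b-5p: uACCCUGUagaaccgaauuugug
miR-10a-5p had log2 levels of 3.04, 3.08 and 3.65 in G93A/G93A, 4.06, 4.20 and 4.12 in G93A/WT, and 3.99 and 3.74 in WT/WT. It was lower on all 3 G93A/G93A arrays than on any G93A/WT array, with a log2 difference of -0.87 ± 0.18 that passed the test (limma adjusted p = 0.0228). The call was lost under 8 of 20 alternatives. Leaving out G93A/G93A 1 or G93A/G93A 2 gave -0.76 and -0.78 (adjusted p = 0.0678 and 0.0908), and leaving out G93A/WT 2 or G93A/WT 3 gave -0.83 and -0.87 (adjusted p = 0.0968 and 0.0569). Against WT/WT, miR-10a-5p stood at -0.61 ± 0.20 and miR-10b-5p at -0.52 ± 0.16 in G93A/G93A, neither past the threshold (limma adjusted p = 0.108 and 0.107), although every G93A/G93A array was lower than both WT/WT arrays for both.

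Over the 28 opposite arms, let-7 partners, miR-351 neighbours and miR-10 relatives together, 16 were detected on at least 1 array and 15 were tested. Limma called 0 of 15 in G93A/G93A minus WT/WT, 1 in G93A/WT minus WT/WT and 2 in G93A/G93A minus G93A/WT, beside 46, 21 and 57 of all 538. The 1 call in G93A/WT minus WT/WT and 1 of the 2 in G93A/G93A minus G93A/WT were miR-450a-2-3p. In the same order of comparisons, 6, 3 and 7 of the 15 were lower on every array of the first group. Of all tested miRNAs, 22.7%, 26.0% and 19.1% were. Higher on every array were 0, 3 and 0 of the 15. Their median log2 differences were -0.20, 0.10 and -0.36, against -0.01, 0.04 and -0.10 over all tested. In G93A/G93A minus G93A/WT the partners thus lay as low as the 6 members, whose median was -0.35.

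**Figure D4:**
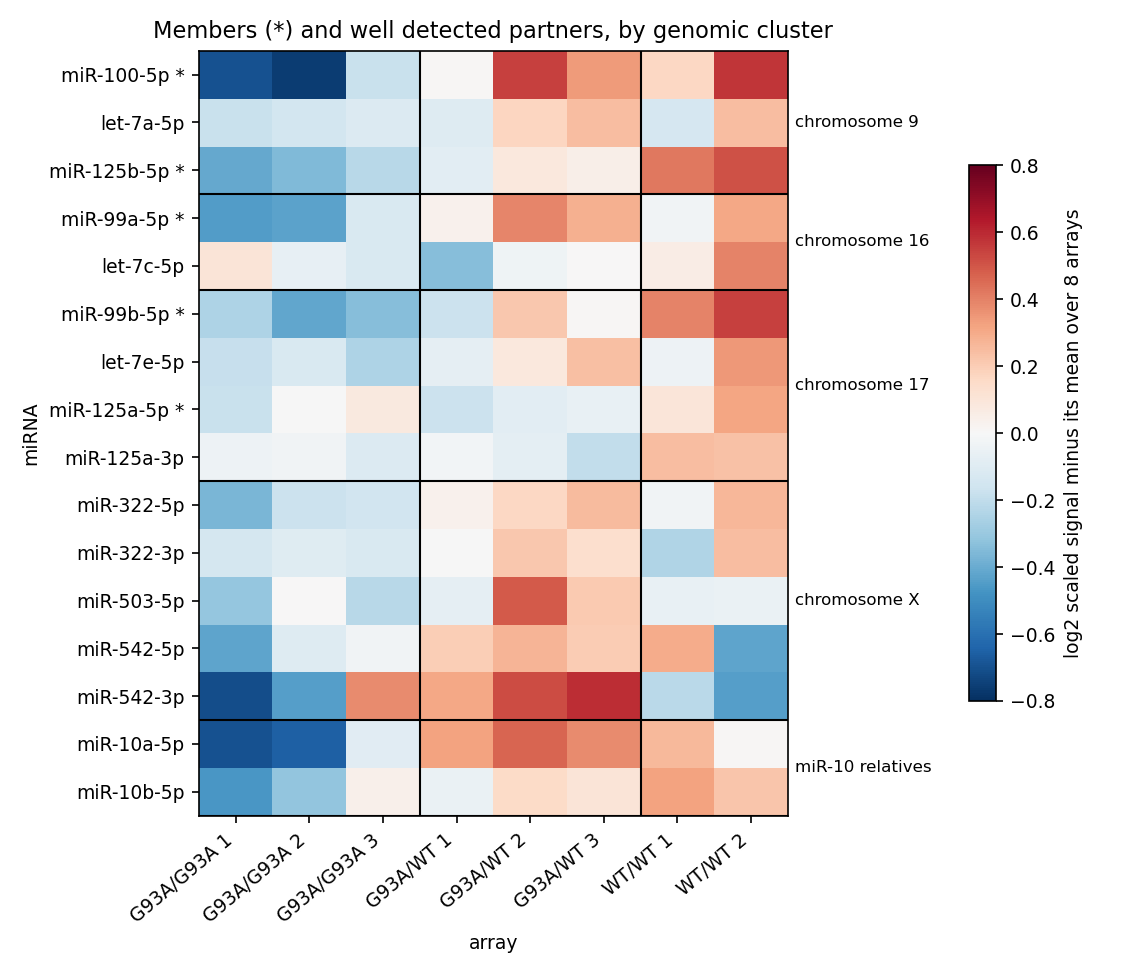
Log2 scaled signal minus its mean over the 8 arrays (colour) for the 5 members detected on all arrays (asterisks) and the 11 partners detected on all arrays, grouped by genomic cluster, with arrays in columns; miR-125b-5p is placed on chromosome 9 but also comes from chromosome 16, and let-7a-5p and let-7c-5p also come from other loci. The members are mostly blue in G93A/G93A, while the neighbouring let-7 miRNAs and miR-125a are paler. Partners miR-10a-5p, miR-10b-5p and miR-542-3p are also blue on G93A/G93A 1 and G93A/G93A 2, though not all on G93A/G93A 3, so the colour does not set the members apart.

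A further miRNA of the array, miR-6394, carries the miR-125 seed and was looked up after the data had been seen. Its sequence is given to show that it shares the seed and little beyond it (RefSeq, GRCm38.p6, chr7:96305740-96305760, plus strand).
mmu-miR-6394: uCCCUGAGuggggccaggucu
It was detected on all 8 arrays, at log2 4.38 ± 0.14 in G93A/G93A, 4.30 ± 0.14 in G93A/WT (SD, n = 3 each) and 4.37 ± 0.04 in WT/WT (SD, n = 2). Its difference from WT/WT was 0.01 ± 0.13 in G93A/G93A and -0.07 ± 0.13 in G93A/WT, within the spread between arrays. miR-6367, with the same seed, was detected on no array.

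Markers of some other cell types also differed between the groups. No call in any comparison fell on the erythroid and serum (4 tested), endothelial (1 tested) or neural (1 tested) lists. The summed scaled signal of 10 epithelial markers was 0 to 5.36 units in G93A/G93A, 61.2 to 85.0 units in G93A/WT and 138 to 166 units in WT/WT, the same order as miR-125b-5p and miR-99b-5p. Limma called 5 of the 5 tested ones lower in G93A/G93A minus WT/WT, beside 8.55% of all tested miRNAs called in either direction. The size of each difference depends on the floor. miR-205-5p was detected on 2 of the 3 G93A/G93A arrays, and the defining markers miR-203-3p, miR-200b-3p, miR-200c-3p and miR-429-3p on none. These undetected markers passed the filter only through the other groups. They lay at the floor with no spread in G93A/G93A, so nothing is read from their calls. Of 5 fibroblast markers, 4 were tested and 1, miR-199a-5p, was lower in G93A/G93A minus WT/WT (-0.85 ± 0.17, limma adjusted p = 0.0291), with sums of 343 to 430 units in G93A/G93A, 415 to 553 units in G93A/WT and 475 to 517 units in WT/WT. The leukocyte marker miR-223-3p was higher in G93A/G93A (0.52 ± 0.12, limma adjusted p = 0.0433), while miR-142a-3p and miR-150-5p were undetected. The part of other cell types in the levels of the miR-125 and miR-99/100 families was not tested.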

How the data were processed

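Small RNA from culture medium was hybridised, 1 sample per array, to 1-colour Agilent mouse miRNA arrays on 1 slide. Per the file headers, the deposited files hold a linear intensity for each miRNA (total gene signal) with an error estimate and a flag for detection; undetected miRNAs are listed at 0.1. The sources used here name no scanner software version. A deposited table of the authors' processed intensity values for 492 mouse miRNAs, whose normalization the sources used here do not give, with array medians of 23.2 to 26.5, served as an alternative; on the log2 scale it correlated with the deposited signals at r = 0.970 to 0.999.

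Signals were scaled to the 75th percentile over 423 miRNAs detected on all arrays, floored at 1.52 units (the median of the arrays' lowest detected values) and log2 transformed. The 538 miRNAs detected on at least 2 arrays were fitted with limma 3.58.1 in R 4.3.3 (3 groups, Benjamini-Hochberg, threshold 0.05). No fold is given against a group in which a miRNA was undetected on every array. The number of arrays limits the precision.

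The 6 miRNAs and all lists were chosen with earlier results of these data known. Named were the 6, their opposite arms, cluster and seed relatives, and the 3 miRNAs most correlated with the lead of each family. Mature sequences matched for 6 of 6 members and for 1608 of 1881 miRNAs of the array. Alternatives covered scaling, floor, filter, variance model, slide row, array left out and the authors' table.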

Additional observations from a re-analysis of the deposited data

How the results depend on the processing

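The 2 or 3 arrays per group and 1 slide limit every call, and miR-351-5p lay too near background for a fold. Of all values for single miRNAs under the alternatives, 1141 neither changed sign nor crossed the threshold (values of 0 included), 31 lost a call, 38 gained one and 73 changed sign with no call; 1 changed sign with a call, miR-322-3p in G93A/G93A minus G93A/WT, at 0.69 with the authors' table against -0.24. Below, the 3 comparisons are G93A/G93A minus WT/WT, G93A/WT minus WT/WT and G93A/G93A minus G93A/WT, in this order. The main counts of called miRNAs were 46, 21 and 57, of members 2, 0 and 0, and of partners 0, 1 and 2. Leaving out 1 array gave 7 to 57, 7 to 61 and 38 to 122 miRNAs, 0 to 3, 0 to 1 and 0 to 3 members, and 0 to 2, 0 to 2 and 1 to 4 partners. Without scaling, 14, 130 and 149 miRNAs were called, with 0 members in the first comparison and 4 in the third, and 3 and 9 partners in the second and the third. Deviations from the group means had r = -0.31 to 0.31 between arrays with the same number. This cannot decide whether the numbers are a pairing, since deviations within groups of 2 or 3 arrays are tied to each other. The design text names no litter or culture day that would pair them. The replicate block gave 10, 8 and 37 miRNAs, with 1 member in the first comparison and 1 partner in the third. The slide row as a block gave 7 miRNAs and 0 members in the first, and 0 miRNAs and 0 partners in the third; within the row, 9 miRNAs and 0 members were called in the first. The authors' table gave 5 miRNAs and 0 partners in the second, and 45 miRNAs and 1 partner in the third. A floor of 4 units gave 47 miRNAs and 1 partner in the first, and 40 miRNAs and 1 member in the second. In the third it gave 50 miRNAs, 1 member and 1 partner. Testing only miRNAs detected on all 8 arrays gave 29 miRNAs in the first, and 0 miRNAs and 0 partners in the second. In the third it gave 44 miRNAs, 1 member and 1 partner. Testing all mouse miRNAs gave 11, 11 and 31 miRNAs, with 1 member in the first and 1 partner in the third. The intensity trend gave 28 miRNAs and 1 member in the second, and 64 miRNAs and 3 members in the third. Fitting only the 2 groups compared gave 17 and 43 miRNAs in the first and the second, with 2 partners in the second. Quantile normalization gave 20 miRNAs and 0 partners in the second, and 51 miRNAs, 1 member and 1 partner in the third. Centring number classes (below 1000 or not) gave 18 miRNAs and 1 member in the first. The cause of these shifts was not tested, beyond the fewer arrays or other number of miRNAs in the fits so built. Scaling over all mouse miRNAs was not run, since the percentile fell on undetected values. miR-125b-5p stayed below 0 in G93A/G93A minus WT/WT under 21 of 21 alternatives (-0.85 to -0.63), as did miR-99b-5p (-0.88 to -0.64). They were called under 16 and 12 of these. Each alternative reuses arrays on which the miRNAs were chosen, so these counts carry no test.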
